A study of Loxodonta africana with 12 samples.

Results

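Granzymes, perforin and the receptors of natural killer (NK) cells were followed in blood cells of the African elephant (Loxodonta africana) after ionising radiation. The genes were chosen by name: 10 symbols of cytotoxic granule proteins and NK receptors were looked up in the deposited count tables of 16406 genes, and 7 of them matched a row. These are GZMA, GZMK, PRF1, CTSW, NKG7, CD160 and KLRD1. The symbols were chosen with earlier results of these data known. GZMB, GZMM and KLRB1 were not analysed here.

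The 12 RNA-seq libraries fall into 4 groups of 3: untreated cells (0 Gy) at 5 h, cells given 2 Gy at 5 h, untreated cells at 24 h and cells given 2 Gy at 24 h. The labels give blood as the source and no genotype, age, sorting or culture step, and no allele or other agent. Whether the replicates are different animals, blood draws or cultures is not stated, so each p-value weighs a difference only against library-to-library spread that may be technical. Library totals were 31059389 to 38138163 counts at 5 h and 18022475 to 37356501 at 24 h. PTPRC (CD45), carried by nearly all white blood cells, was read at 3809 to 5809 CPM (read counts scaled to a common library size) in all libraries.

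Cytotoxic lymphocytes, that is NK cells and CD8 T cells, kill target cells with secretory granules. Perforin opens the target's membrane and granzymes, which are serine proteases, enter through it and cleave proteins inside. Cathepsin W (CTSW) is a cysteine protease of these cells, and NKG7 is a granule membrane protein that takes part in granule release. CD160 and KLRD1 (CD94) are surface receptors that bind MHC class I and related molecules, KLRD1 as the partner of NKG2 chains.

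Ensembl gene models place the members on 6 scaffolds of the L_africana_Jul_2009 build, with coordinates as the files give them. GZMK (ENSLAFG00000002376) lies on scaffold 7 at 57056371 to 57068257 and GZMA (ENSLAFG00000002378) on the same scaffold at 57126962 to 57135455, both on the plus strand and 58704 bases apart. PRF1 (ENSLAFG00000011581) is on scaffold 10 at 52294896 to 52298214, CTSW (ENSLAFG00000001761) on scaffold 71 at 3617135 to 3620272, and NKG7 (ENSLAFG00000028212) on scaffold 4 at 11414187 to 11415710, all on the minus strand. On the plus strand are CD160 (ENSLAFG00000008333) on scaffold 127 at 1306028 to 1311141 and KLRD1 (ENSLAFG00000021476) on scaffold 193 at 92472 to 96836. All 7 are annotated as protein coding genes.

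The most abundant members per exon length, on the authors' deposited FPKM scale, were NKG7, GZMA, PRF1 and CTSW. In untreated cells at 24 h the FPKM level was 153 ± 12.1 for NKG7, 120 ± 22.3 for GZMA, 116 ± 29.6 for PRF1 and 98.4 ± 2.46 for CTSW (SD, n = 3). The ranges of GZMA, PRF1 and CTSW overlapped, and PRF1 also overlapped NKG7, so their order is not resolved beyond that spread. GZMK followed at 17.7 ± 1.98 FPKM, CD160 at 10.9 ± 1.15 and KLRD1 at 1.81 ± 0.777, with no overlap between these neighbours. KLRD1 rested on 14 to 64 counts per library over all 12 libraries. After 2 Gy at 24 h the FPKM order was NKG7 at 69.3 ± 18.1, PRF1 at 57.3 ± 17.3, CTSW at 39.2 ± 7.20 and GZMA at 33.9 ± 6.85, and each neighbouring pair overlapped. Below them in the same group came GZMK at 7.08 ± 0.596 FPKM, CD160 at 3.82 ± 0.630 and KLRD1 at 1.33 ± 0.469, with no overlap between neighbours.

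**Figure D1:**
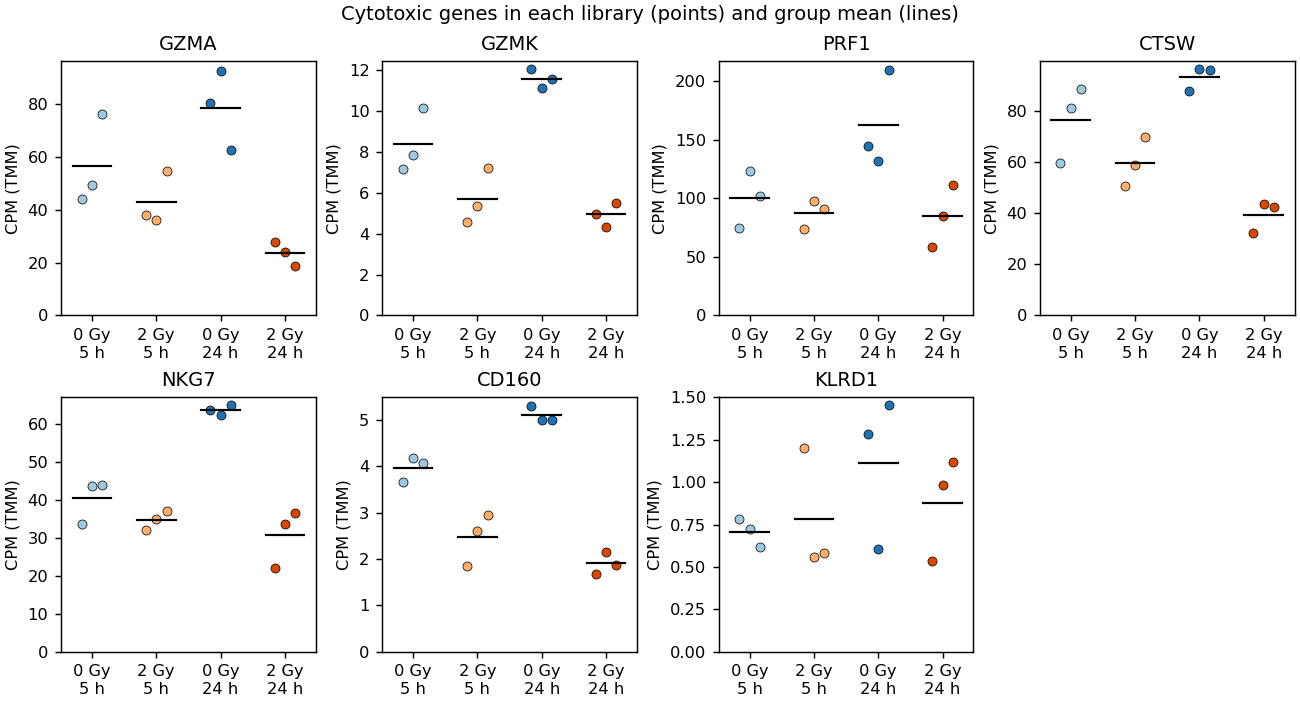
CPM (vertical axes, linear, each starting at 0) of the 7 genes in each of the 12 libraries (points), with the mean of each group of 3 (lines), for 0 Gy and 2 Gy at 5 h and 24 h. For 6 of the 7 genes the libraries given 2 Gy lie below all untreated libraries at 24 h, and KLRD1 is the exception.

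At 24 h, 5 of the 7 genes fell after 2 Gy and none rose: GZMA, GZMK, CTSW, CD160 and NKG7. The falls ran from 3.34-fold for GZMA to 2.09-fold for NKG7. Of the 14373 genes tested at this time, 4.94% were called lower and 1.80% higher, at an adjusted p of 0.05 (edgeR's quasi-likelihood test with Benjamini-Hochberg adjustment over all genes tested). Every library given 2 Gy was below every untreated library for 6 of 7 members, against 16.8% of all genes tested. The members' median log2 fold change was -1.24 and that of all genes was 0.01. Because the members were chosen with earlier results of these data known, these contrasts describe them and are no independent test. Untreated libraries of 24 h held 22924260 to 37356501 counts and irradiated ones 18022475 to 23805619. With library totals in place of TMM 5 members were again lower, where 1045 of all 14373 genes were lower. A change of scaling moves all genes nearly alike, so that repeat is no check on depth. In RNA from a mixture of cells, fewer cells of a type and less RNA per cell cannot be told apart. Levels below are CPM scaled by the TMM method over all 12 libraries, and fold changes come from the fit of each comparison.

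GZMA, the tryptase-like granzyme, had the largest fall of the 7. Its level in untreated cells at 24 h was 80.1, 92.4 and 62.4 CPM in replicates 1 to 3, and in cells given 2 Gy 27.8, 24.0 and 18.7 CPM. The groups did not overlap. The log2 fold change was -1.74 ± 0.20 (SE, adjusted p = 0.00398).

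GZMK is the second tryptase-like granzyme and lies on the same scaffold as GZMA. It was read at 12.1, 11.1 and 11.6 CPM in untreated cells and at 4.96, 4.34 and 5.53 CPM after 2 Gy at 24 h. The groups stood well apart, with little spread inside each. Its log2 fold change was -1.24 ± 0.13 (SE, adjusted p = 0.00313).

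PRF1, which encodes perforin, varied more within groups. At 24 h it was read at 145, 132 and 209 CPM in untreated cells and at 58.7, 85.1 and 111 CPM after 2 Gy. The groups did not overlap, but the log2 difference of -0.94 ± 0.26 did not pass the test (SE, adjusted p = 0.0789). It passed with DESeq2 (adjusted p = 0.00726) and when all 12 libraries shared a single fit (adjusted p = 0.0289).

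CTSW was at 87.7, 96.3 and 95.8 CPM in untreated cells at 24 h and at 32.2, 43.5 and 42.5 CPM after 2 Gy. The fall had a log2 size of -1.25 ± 0.13 (SE, adjusted p = 0.00284), with untreated libraries close together and all above the irradiated ones. NKG7 was at 63.7, 62.4 and 64.8 CPM in untreated cells and at 21.9, 33.6 and 36.4 CPM after 2 Gy. Its log2 fold change was -1.07 ± 0.18 (SE, adjusted p = 0.0171), and the irradiated libraries spread more than the untreated ones. The NKG7 call was lost without untreated 24 h replicate 1 (adjusted p = 0.0558) or irradiated 24 h replicate 2 (adjusted p = 0.0588).

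Of the receptors, CD160 fell and KLRD1 did not pass the test. CD160 was read at 5.31, 5.00 and 5.00 CPM in untreated cells at 24 h and at 1.68, 2.15 and 1.88 CPM after 2 Gy, a log2 fold change of -1.43 ± 0.17 (SE, adjusted p = 0.00541). The groups were far apart although CD160 rested on only 37 to 48 counts in the irradiated libraries. KLRD1 was at 1.28, 0.607 and 1.46 CPM in untreated cells and at 0.534, 0.985 and 1.12 CPM after 2 Gy. These ranges overlapped, and the log2 difference was -0.37 ± 0.47 (SE, adjusted p = 0.697), so a change was not detectable at this depth.

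**Figure D2:**
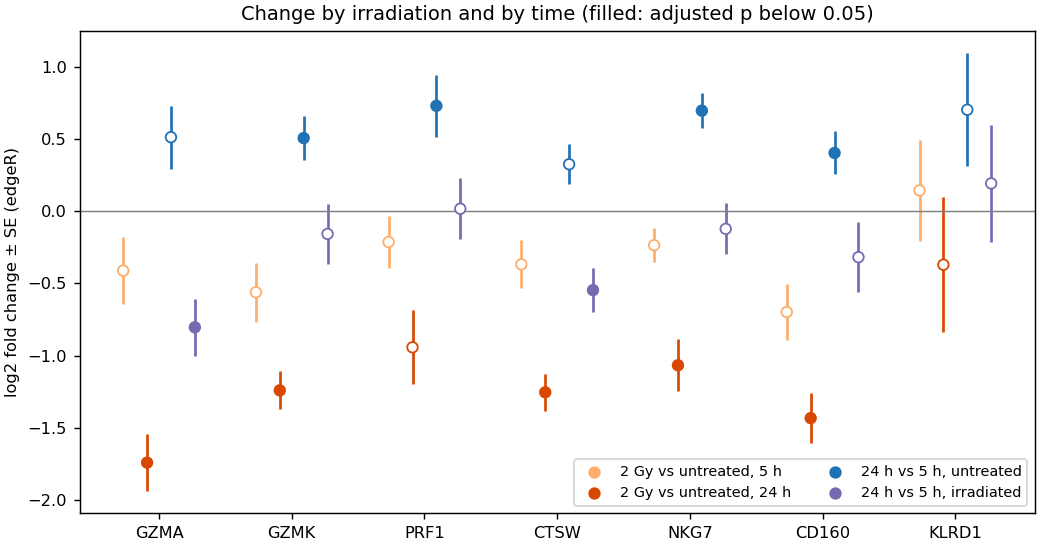
Log2 fold change (vertical axis, edgeR) with its standard error (bars) of the 7 genes in the irradiation comparison at 5 h and 24 h and in the time comparison of untreated and of irradiated cells; filled points have an adjusted p below 0.05. The 24 h irradiation values of 6 genes lie between -1.74 and -0.94, while the 5 h values of all 7 are open and lie between -0.70 and 0.14.

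At 5 h, 6 of 7 members had negative log2 differences after 2 Gy but none passed the test without a block for the replicate number. At an unadjusted p under 0.05 there were 2, with the share of all genes at that threshold not counted, and DESeq2 also called 0. The share of all genes called lower was 0.478%. CD160 was the single member whose groups did not overlap, against 8.43% of all genes with every irradiated library below every untreated one. The members' median log2 difference was -0.37 and that of all genes -0.0015. At this time same-numbered libraries varied together, and with the replicate number as a block 6 of 7 members were called lower, where 9.92% of all genes were called lower and 10.6% higher.

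With that block at 5 h, GZMA fell by 0.40 on the log2 scale (adjusted p = 0.000152), CTSW by 0.36 (adjusted p = 0.000167) and GZMK by 0.57 (adjusted p = 0.000499). CD160 fell by 0.70 (adjusted p = 0.00273), NKG7 by 0.23 (adjusted p = 0.0146) and PRF1 by 0.19 (adjusted p = 0.0255). GZMA shows what the block takes up: it was at 43.8, 49.4 and 76.2 CPM in untreated replicates 1 to 3 and at 37.9, 36.0 and 54.5 CPM in irradiated replicates 1 to 3, so each irradiated library was below the untreated library of its number while the groups overlapped. PRF1 was at 74.6, 123 and 102 CPM in untreated cells and at 73.8, 97.2 and 90.7 CPM after 2 Gy, again lower within each number. Without the block their log2 differences were -0.41 ± 0.23 (SE, adjusted p = 0.530) for GZMA and -0.21 ± 0.18 (SE, adjusted p = 0.696) for PRF1.

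CD160 at 5 h was at 3.66, 4.17 and 4.06 CPM in untreated cells and at 1.84, 2.61 and 2.95 CPM after 2 Gy. The log2 difference without a block was -0.70 ± 0.19 (SE, adjusted p = 0.172), the largest in size of the 7 at this time. For GZMK it was -0.56 ± 0.20 (SE, adjusted p = 0.294), for CTSW -0.37 ± 0.17 (SE, adjusted p = 0.412) and for NKG7 -0.23 ± 0.12 (SE, adjusted p = 0.467). KLRD1 had 0.14 ± 0.35 (SE, adjusted p = 0.909), and 0.10 with the block (adjusted p = 0.854).

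Markers of other cell types moved at 5 h as well, where 9.92% of all genes were called lower and 10.6% higher with the block. With the block 12 of 16 B cell markers and 11 of 21 T cell markers were lower and none of either list higher, and of 11 monocyte and macrophage markers 8 were higher and 2 lower. Of 11 neutrophil markers 3 were lower and 0 higher, and of 9 platelet markers 1 was higher and 0 lower. Without the block 2 B cell markers were lower, 2 monocyte and macrophage markers and 1 platelet marker higher, and no T cell or neutrophil marker was called. That fit called 62 of all 12969 genes lower and 145 higher. Summed levels in untreated and irradiated libraries were 348 to 416 and 226 to 292 CPM for B cell markers, 588 to 885 and 534 to 765 CPM for T cell markers, and 3116 to 3961 and 3846 to 4818 CPM for monocyte and macrophage markers. For neutrophil markers they were 2241 to 2594 and 2102 to 2347 CPM, and for platelet markers 134 to 200 and 154 to 224 CPM. Their part in the 5 h differences of the cytotoxic genes was not tested.

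Whether the response differed between the times was tested as an interaction over all 12 libraries. All 7 members had a more negative irradiation difference at 24 h than at 5 h, from -1.33 ± 0.33 (SE) on the log2 scale for GZMA to -0.51 ± 0.60 for KLRD1. Without a block none passed the adjusted threshold. GZMA had an adjusted p of 0.0977, CTSW of 0.112 (-0.89 ± 0.23, SE) and NKG7 of 0.139 (-0.83 ± 0.23, SE). At an unadjusted p under 0.05 there were 5, with the share of all genes at that threshold not counted. DESeq2 called 3: GZMA (adjusted p = 0.00873), CTSW (adjusted p = 0.0156) and NKG7 (adjusted p = 0.0235). Over all 15200 genes it called 80 higher and 282 lower. With the replicate number as a block within each time, GZMA (adjusted p = 0.00277) and CTSW (adjusted p = 0.00907) were called. All same-numbered libraries varied together at 5 h, but at 24 h only those of number 3 did so clearly (r = 0.726). Irradiated 1 varied with untreated 2 (r = 0.612) and irradiated 2 with untreated 1 (r = 0.451), and no fit paired libraries in that way. Of all genes 0.757% had a lower and 0.125% a higher response at 24 h by the edgeR test without a block. With the block 199 of 15200 genes had a lower and 69 a higher response.

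Levels also moved with time. In untreated cells 4 of 7 members were higher at 24 h than at 5 h and none lower, while 32.6% of all genes were called higher. NKG7 rose by a log2 fold change of 0.70 ± 0.12 (SE, adjusted p = 0.00107), from 33.5, 43.6 and 44.0 CPM at 5 h. PRF1 rose by 0.73 ± 0.22 (SE, adjusted p = 0.0172), GZMK by 0.51 ± 0.15 (SE, adjusted p = 0.0177) and CD160 by 0.40 ± 0.15 (SE, adjusted p = 0.0409). GZMA had 0.51 ± 0.22 (SE, adjusted p = 0.0672), CTSW 0.33 ± 0.14 (SE, adjusted p = 0.0695) and KLRD1 0.70 ± 0.39 (SE, adjusted p = 0.145), none of which passed. The count was 1 without untreated 5 h replicate 1, 2 without untreated 5 h replicate 2 and 2 without untreated 24 h replicate 1. Without untreated 5 h replicate 3 or untreated 24 h replicate 3, PRF1 was not called (adjusted p = 0.0558 and 0.0597), and CD160 was called only with library totals among its 12 alternatives, with an adjusted p of up to 0.162 in the others. DESeq2, RLE factors and the joint fit each gave 3 members higher.

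The comparisons between times depend on the scaling. The median log2 change of all genes in untreated cells was 0.11 with TMM and 0.52 with library totals, and in irradiated cells 0.10 and 0.44. Relative to that median the untreated members were 0.22 (CTSW) to 0.62 (PRF1) higher at 24 h with TMM, and 0.22 (CTSW) to 0.63 (PRF1) higher with library totals. A change of scaling moves all genes nearly alike, so these values had to match and are no separate check. With library totals all 7 were called higher, as were 7063 of all 13445 genes tested. Marker lists had calls in untreated cells between the times as well. Of 21 T cell markers 11 and of 16 B cell markers 8 were higher and 0 lower. Of 11 neutrophil markers 6 and of 9 platelet markers 3 were lower and 0 higher, and 3 of 11 monocyte and macrophage markers were higher and 4 lower. Of all 13445 genes tested 4383 were called higher and 4107 lower. The platelet count lower and both monocyte and macrophage counts were near those shares of all genes. Summed levels of T cell markers were 588 to 885 CPM at 5 h and 1105 to 1464 CPM at 24 h, those of B cell markers 348 to 416 and 557 to 633 CPM, and those of neutrophil markers 2241 to 2594 and 328 to 591 CPM. For monocyte and macrophage markers they were 3116 to 3961 and 3347 to 4010 CPM, and for platelet markers 134 to 200 and 59.6 to 76.0 CPM. Their part in the rise of the members was not tested.

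In cells given 2 Gy, GZMA fell between 5 h and 24 h by 0.80 ± 0.20 (SE, adjusted p = 0.00648) on the log2 scale, and CTSW by 0.55 ± 0.15 (SE, adjusted p = 0.0126). Those were 2 of 7 called lower and 0 higher, with 30.6% of all genes called lower and 35.3% higher, so the count lower was near the share of all genes. With library totals neither passed (GZMA -0.46, adjusted p = 0.062; CTSW -0.20, adjusted p = 0.296). Relative to the median gene GZMA was -0.91 and CTSW -0.65 under both scalings. That match was fixed in advance, since scaling moves all genes nearly alike. The other 5 had log2 differences from -0.32 to 0.19 with none called, and GZMK, NKG7 and CD160 were negative with TMM and positive with library totals. In the same comparison 14 of 16 B cell markers were lower and 2 higher, and 7 of 12 neutrophil markers were lower and 0 higher. Of 21 T cell markers 6 were higher and 3 lower, of 11 monocyte and macrophage markers 3 higher and 3 lower, and of 9 platelet markers 0 higher and 1 lower. The counts of these last lists did not exceed the shares of all genes. The part of the marker lists was not tested. The irradiation and time comparisons share libraries, so they are not independent of each other.

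The members did not move as a block of fixed proportions. Likeness was taken as the root mean square difference between 2 genes' centred log2 CPM over the 12 libraries, with 0.5 added, for the 6 members above a mean of 1 CPM. It ranged from 0.166 for GZMK with CD160, the closest pair, to 0.593 for GZMA with PRF1. NKG7 and PRF1 were 0.185 apart, and CTSW and CD160 0.175 apart. These values describe the same 12 libraries and share their depth and scaling.

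The ratio of GZMA counts to PRF1 counts, which needs no scaling between libraries, was 0.587, 0.401 and 0.746 in untreated replicates 1 to 3 at 5 h and 0.514, 0.370 and 0.601 after 2 Gy. At 24 h it was 0.554, 0.700 and 0.298 in untreated cells and 0.474, 0.282 and 0.168 after 2 Gy. At 5 h the replicates had the same order in both groups, and within each of the 3 pairs of the same number the ratio was lower after 2 Gy. In each 24 h group replicate 3 had the lowest ratio, with the highest PRF1 level and the lowest GZMA level of its group. The groups overlapped at both times.

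**Figure D3:**
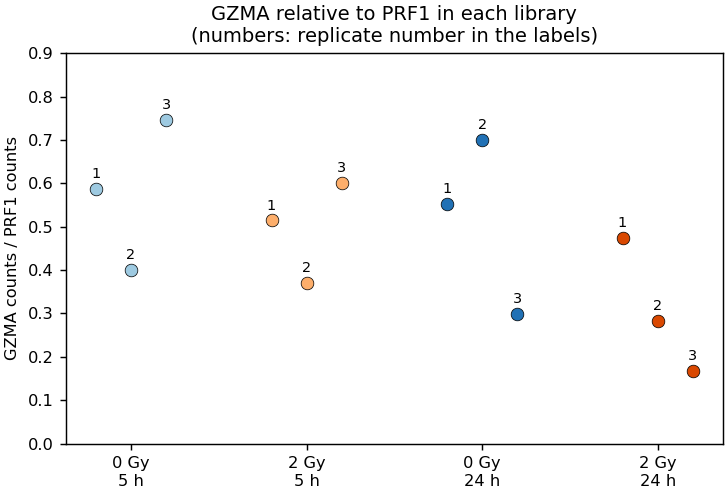
Ratio of GZMA counts to PRF1 counts (vertical axis, from 0) in each library, by dose and time, with the replicate number of the labels beside each point. Within groups the ratio varies as widely as from 0.298 to 0.700 (untreated, 24 h), and replicate 3 is lowest in both 24 h groups.

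Among genes outside the 10 symbols, those with the pattern nearest to each member over the 12 libraries were found with the same measure. For GZMA they were TNFRSF13B (0.163), a receptor of B cells, FCRL3 (0.254), an Fc receptor-like protein of lymphocytes, and HLA-DOA (0.258), an MHC class II chain of B cells. Nearest to PRF1 were SLC43A1 (0.148), SLA2 (0.157), an adaptor of T cell receptor signalling, and PIK3IP1 (0.159). NKG7 had ITPRIPL1 (0.0945), SLA2 (0.106) and ADD3 (0.112), and CTSW had HOPX (0.114), CERS4 (0.129) and LRRC8C (0.130). GZMK had ATP8B2 (0.137), SLAIN1 (0.138) and ECHDC1 (0.152), and CD160 had ATP8B2 (0.121), SPINT2 (0.125) and WDFY4 (0.129). The median distance of all genes to a member was 0.572 for NKG7 and 0.772 for GZMA.

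Other genes of the killing pathway were taken from 4 lists. At 24 h the proteins that load and release granules showed 1 of 13 genes lower and 0 higher, with a median log2 difference of 0.01. Over all genes tested 4.94% were lower and 1.8% higher, so the count of this list is near the share of all genes. The gene called was SERPINB9, the inhibitor that shields killer cells from granzyme B, which fell from 35.0 ± 0.39 to 18.8 ± 1.4 CPM (SD, n = 3; log2 -0.90 ± 0.09 SE, adjusted p = 0.00284). LYST, the lysosomal trafficking regulator, was at 722 ± 13.3 and 998 ± 104 CPM and did not pass (adjusted p = 0.0526). It passed with DESeq2 (adjusted p = 0.000641), RLE factors (0.0459), the stricter filter (0.0432) and the joint fit (0.0418), and without irradiated 24 h replicate 1. LAMP1, a lysosomal membrane protein, had a log2 difference of 0.27 (adjusted p = 0.172) and passed with DESeq2 (0.0255). DESeq2 thus called 2 genes of this list higher, and 606 of all 14373 genes. CST7 (cystatin F), which inhibits cathepsins, had a log2 difference of -0.38 (adjusted p = 0.146).

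NK receptors and adaptors divided. Of 15 tested at 24 h, 2 were higher and 2 lower, with a median of 0.21 on the log2 scale. Over all genes tested 1.8% were higher and 4.94% lower. SLAMF7, an activating receptor also found on other leukocytes, rose from 175 ± 29.5 to 436 ± 41.5 CPM (SD, n = 3; log2 1.30 ± 0.14 SE, adjusted p = 0.00293). TYROBP (DAP12), a signalling adaptor shared with myeloid cells, rose by 0.52 (adjusted p = 0.0146). SH2D1A, the adaptor of SLAM receptors, had a log2 fold change of -1.08 (adjusted p = 0.0261) and CD226, the activating receptor DNAM-1, one of -0.63 (adjusted p = 0.0300).

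NCR1 (NKp46), an activating receptor used to mark NK cells, did not pass at 24 h. It was read at 8.05, 6.82 and 8.73 CPM in untreated cells and at 7.02, 8.86 and 9.39 CPM after 2 Gy, so the groups overlapped. The log2 difference was 0.09 ± 0.16 (SE, adjusted p = 0.804). KLRF1 (NKp80) had 0.43 ± 0.28 (SE, adjusted p = 0.432) on 27 to 58 counts per library. NCR1 rose between 5 h and 24 h in untreated cells by 1.21 (adjusted p = 0.000224) and in irradiated cells by 1.01 (adjusted p = 0.000762) on the log2 scale.

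Cytokine receptors and transcription factors of killer cells had 5 of 20 genes lower and 0 higher at 24 h, with a median of -0.18. Over all genes tested 4.94% were lower and 1.8% higher. IL18RAP, a chain of the interleukin-18 receptor, fell from 48.4 ± 6.51 to 22.8 ± 0.521 CPM (SD, n = 3; log2 -1.09 ± 0.11 SE, adjusted p = 0.00237). EOMES, a T-box factor that drives the cytotoxic programme, fell by 0.88 on the log2 scale (adjusted p = 0.00807). TBX21 (T-bet), its relative, fell by 1.12 (adjusted p = 0.0179) and IKZF3, a lymphoid zinc finger factor, by 1.25 (adjusted p = 0.0204). IL21R, the interleukin-21 receptor, had -0.80 (adjusted p = 0.0274). The count of 5 was 2 without untreated 24 h replicate 1 or 3 and 3 without irradiated 24 h replicate 2. DESeq2 called 7 lower and 2 higher, and of all 14373 genes 1109 lower and 606 higher.

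Of the death ligands and cytokines 1 of 6 was higher and 0 lower at 24 h, against 1.8% higher and 4.94% lower of all genes tested. IFNG, the interferon that activated killer cells secrete, rose from 1.36 ± 0.592 to 7.55 ± 3.20 CPM (SD, n = 3; log2 2.44 ± 0.42 SE, adjusted p = 0.0191). TNFSF10 (TRAIL) had a log2 difference of -0.76 (adjusted p = 0.141), which passed with DESeq2 (0.0482) and in the joint fit (0.0393). CSF2 had a difference of 1.35 (adjusted p = 0.175) and TNF of 0.97 (adjusted p = 0.211). At 5 h 10 genes of the 4 lists had an unadjusted p under 0.05, with the share of all genes at that threshold not counted. DESeq2 called 2, where it called 240 higher and 204 lower of all 12969 genes, and none passed in the edgeR fit without the block. With it the calls, higher and lower, were 2 and 2 of 13 for granule loading, 1 and 2 of 14 for receptors, 2 and 1 of 6 for ligands and 3 and 5 of 20 for cytokine receptors and transcription factors, where 10.6% of all genes were called higher and 9.92% lower. Among them with the block were SLAMF7, which rose by 0.63 on the log2 scale (adjusted p = 8.69e-08), LYST, which rose by 0.43 (adjusted p = 6.45e-07), EOMES, which fell by 0.70 (adjusted p = 4.62e-06), and SERPINB9, which fell by 0.60 (adjusted p = 0.000144).

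Several of these calls were lost when 1 library was left out. Without untreated 24 h replicate 1, SH2D1A, CD226, TYROBP, IFNG, TBX21 and IKZF3 were not called. The same held without irradiated 24 h replicate 2 for all of these but IKZF3, and without untreated 24 h replicate 3 for all but IFNG. SH2D1A and CD226 were also lost without untreated 24 h replicate 2, and TYROBP, CD226 and IKZF3 without irradiated 24 h replicate 3. Adjusted p over those fits lay between 0.0541 (TBX21) and 0.130 (CD226). SERPINB9, SLAMF7, EOMES and IL18RAP were called in all 6 such fits.

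**Figure D4:**
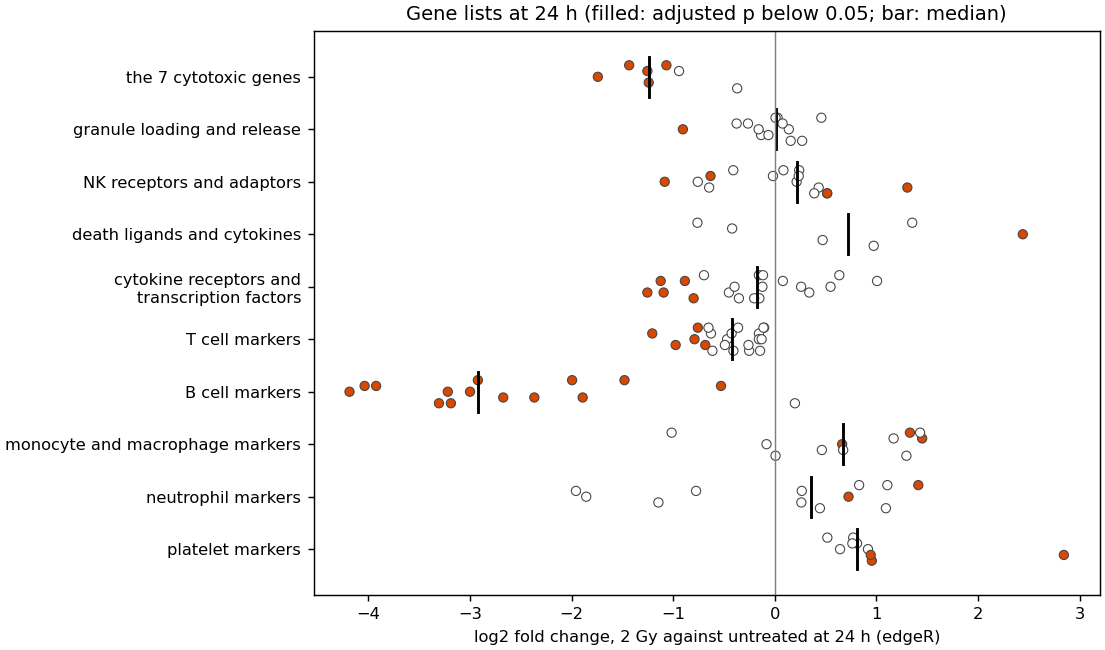
Log2 fold change at 24 h, 2 Gy against untreated (horizontal axis, edgeR), of each tested gene (points, filled where adjusted p is below 0.05) in the list of 7 cytotoxic genes, the 4 pathway lists and 5 lists of cell type markers, with the list median as a bar. The 7 cytotoxic genes have a median of -1.24, the 4 pathway lists medians between -0.18 and 0.72, and the B cell markers a median of -2.92.

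Markers of other cell types moved with the same comparison at 24 h, where 4.94% of all genes tested were called lower and 1.8% higher. Of the T cell markers 5 of 21 were lower and 0 higher (median -0.42), and their summed level was 1105 to 1464 CPM in untreated and 874 to 1041 CPM in irradiated libraries. CD3E, a chain of the T cell receptor complex, fell by 0.76 on the log2 scale (adjusted p = 0.0108), CD8A by 1.21 (adjusted p = 0.0418) and CD8B by 0.79 (adjusted p = 0.0240). The CD8A call was lost without any 1 of the untreated libraries or irradiated 24 h replicate 2, and with the stricter filter on low counts (adjusted p = 0.0532). The CD8B call was lost without any 1 of the same 4 libraries or irradiated 24 h replicate 3. The count of 5 T cell markers was 3 without any 1 of the untreated libraries and 2 without irradiated 24 h replicate 2.

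B cell markers were lower in 14 of 15 and higher in 0 (median -2.92), with sums of 557 to 633 CPM in untreated and 184 to 208 CPM in irradiated libraries. Monocyte and macrophage markers were higher in 3 of 11 and lower in 0 (median 0.67), with sums of 3347 to 4010 and 5687 to 7047 CPM. Neutrophil markers were higher in 2 of 12 and lower in 0 (median 0.35), with sums of 328 to 591 and 582 to 920 CPM, and platelet markers higher in 3 of 9 and lower in 0 (median 0.81), with sums of 59.6 to 76.0 and 122 to 152 CPM. The 2 neutrophil calls became 0 or 1 without any 1 library other than untreated 24 h replicate 2. The shares of all genes called at this time were 4.94% lower and 1.8% higher. No marker of these 5 lists was at 0 in all libraries of a group. Their part in the fall of the cytotoxic genes was not tested.

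The genome neighbours of the members were looked up after the members' values were known. Of 13 nearest genes 12 were tested at 24 h, 2 were lower and none higher. Over all genes tested 4.94% were lower and 1.8% higher. The first was an unnamed gene between GZMK and GZMA (ENSLAFG00000027700), at 3.55, 2.63 and 3.41 CPM in untreated cells and 0.840, 0.985 and 1.22 CPM after 2 Gy (log2 -1.67 ± 0.25 SE, adjusted p = 0.0124). That call was lost without irradiated 24 h replicate 2 (adjusted p = 0.0609). The second was an unnamed gene beside KLRD1 (ENSLAFG00000002613) with -1.25 ± 0.28 (SE, adjusted p = 0.0441). It was lost without untreated 24 h replicate 1 or 3 or any 1 of the irradiated libraries, and with the stricter filter. FIBP, only 407 bases from CTSW, had a log2 difference of -0.10 (adjusted p = 0.733).

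A further granzyme and an NK receptor outside the 10 symbols were also chosen after their values were seen. GZMH, a granzyme close in sequence to granzyme B, fell at 24 h from 106 ± 16.1 to 40.8 ± 13.4 CPM (SD, n = 3; log2 -1.40 ± 0.25 SE, adjusted p = 0.0212), a call lost without untreated 24 h replicate 1 or 3 or irradiated 24 h replicate 2. KIR3DX1, of the killer immunoglobulin-like receptor family, fell from 43.5 ± 3.33 to 22.2 ± 3.56 CPM (SD, n = 3; log2 -0.98 ± 0.13 SE, adjusted p = 0.00861). Reads that granzyme genes share could be split between rows, and how they were counted is not stated in the labels or headers.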

How the data were processed

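Total RNA was column-purified and sequenced from stranded, ribosomal RNA-depleted Illumina libraries, per the labels' protocols. The authors deposited whole-number read counts per Ensembl gene, the input of every test, and FPKM values, used only to order genes by level. Of the members' exon lengths 6 of 7 are multiples of 3, as are 86.4% of those of all protein coding genes. The 12 columns of regularized log values were not used. The sources used here do not give the aligner, the counter or whether strand was used.

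Each comparison was fitted with edgeR 4.0.16 in R 4.3.3 (TMM, filterByExpr, quasi-likelihood F test, Benjamini-Hochberg at 0.05) on its own libraries without a block, the interaction on all 12. SE is the log2 fold change over the square root of F. The procedure was also run on simulated counts with the same spread for every gene and no pairing of libraries. That setting is simpler than these data and does not check how the fits handle them. Same-numbered libraries correlated in their deviations from group means over 15200 genes at 5 h (r = 0.423, 0.409 and 0.622), so values with the block stand beside that comparison. Alternatives were DESeq2 1.42.0, RLE factors, other filters, the block, a joint fit, each library left out, and library totals, the last chosen after seeing the data.

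Named genes are all members, up to 4 genes of each pathway list with the smallest p and the 3 genes most like each member; the cell markers given singly and IL21R were chosen after their values were seen. Members and lists were chosen with earlier results of these data known. Sequences were not analysed here.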

Additional observations from a re-analysis of the deposited data

Results flagged for a closer look

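IFNG was the single gene of the 54 tested in the pathway lists whose response to 2 Gy differed between the times by a test of that difference. Its irradiation effect was 2.62 higher at 24 h than at 5 h on the log2 scale (edgeR interaction term, adjusted p = 0.0358), and 2.63 higher with DESeq2 (adjusted p = 0.000138). The call was lost in 9 of the 12 fits that each left out a library (adjusted p from 0.0579 to 0.108), the libraries being any of the 6 of 5 h, untreated 24 h replicate 1 and irradiated 24 h replicates 2 and 3. None of the 7 cytotoxic genes passed the edgeR test without a block, while DESeq2 called 3 and the replicate block 2.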

How the results depend on the processing

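The count of 5 of 7 cytotoxic genes lower at 24 h stayed between 4 and 6 under all alternatives and was 4 or 5 with a library left out. At 5 h the replicate block gave 6 lower, against 0 in the other fits. In untreated cells the count higher at 24 h than at 5 h was 7 with library totals, where 7063 of all 13445 genes were called higher. It was 1 to 4 with a library left out. In irradiated cells the count lower at 24 h was 1 with the stricter filter, where fewer genes were tested, and 0 with library totals. For the interaction it was 3 with DESeq2, 2 with the replicate block and 0 to 1 with a library left out (GZMA was called without untreated 5 h replicate 3). The cause of these shifts was not tested.

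Not every same-numbered pair varied together at 24 h (r = 0.053, -0.466 and 0.726 for numbers 1 to 3, with 0.612 for irradiated 1 with untreated 2 and 0.451 for irradiated 2 with untreated 1), nor between times in untreated (0.122, 0.041 and -0.223) or irradiated cells (-0.106, 0.103 and -0.075). With the block at 24 h PRF1 was called (adjusted p = 0.0275) while TYROBP (0.0514) and CD226 (0.0607) were not, and between times in untreated cells CTSW was called (0.0496) while CD160 was not (0.0953). In the interaction GZMA (0.00277) and CTSW (0.00907) were called. No fit paired the libraries of 24 h across numbers, so none takes up the crossed likeness of numbers 1 and 2.

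Differences near 0 changed sign. Between times in irradiated cells PRF1 was -0.051 with DESeq2 and with RLE factors, -0.073 with no filter, -0.018 with the block and -0.037 with all libraries in a single fit. GZMK was 0.035 and NKG7 0.074 with the stricter filter, and with library totals GZMK was 0.18, NKG7 0.22 and CD160 0.023. With a library left out PRF1 ranged from -0.31 to 0.14, GZMK from -0.33 to 0.0048 and KLRD1 from -0.094 to 0.61. KLRD1 at 5 h ranged from -0.31 to 0.32, and NCR1 at 24 h from -0.0064 to 0.19.

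Counts over all genes, higher and lower, were at 5 h 145 and 62, against 240 and 204 with DESeq2, 1369 and 1286 with the block, 87 and 25 with the stricter filter and 72 and 14 without irradiated 5 h replicate 1. At 24 h they were 258 and 710, against 606 and 1109 with DESeq2, 508 and 1162 in the joint fit and 72 and 221 without irradiated 24 h replicate 2. For the interaction they were 19 and 115, against 80 and 282 with DESeq2, 69 and 199 with the block, 30 and 82 with the stricter filter and 4 to 51 and 72 to 117 without a library. For untreated cells between times they were 4383 and 4107, against 7063 and 2234 with library totals. For irradiated cells they were 4956 and 4293, against 6968 and 2630. At 14 to 64 counts per library, depth limits what can be seen of KLRD1.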
